A study of Mus musculus with 16 samples.

Results

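The insulin-like growth factor binding proteins (Igfbp) were followed through kidney RNA of 5 wild-type male mice. Members were selected by symbol from the platform annotation, as every probe carrying a single gene symbol made of Igfbp and a digit from 1 to 7. This gave 5 of the 20205 probes and of 9669 genes with such a probe, for Igfbp1, Igfbp2, Igfbp3, Igfbp4 and Igfbp6, 1 probe each. Igfbp5 and Igfbp7 had no probe with a single symbol and are not analysed here as genes. A probe listed with both Polr2b and Igfbp7 ranged over 0.12 on the log2 scale and was not called in limma's 5-kidney test (adjusted p = 0.900), and it is given to neither gene. The family itself was chosen from the measured log2 ratios of Igfbp3, which varied widely over these same 16 arrays, so the values of Igfbp3 are described and not tested.

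The kidneys tested were W1, W2, W3 and W4, and each was set against W5. All 5 were right kidneys of male littermates, wild type, of mixed C57BL/6 and 129Sv background, 88 ± 2 days old and killed between 8 and 10 in the morning. No kidney came from a treated or mutant animal, W5 included, so the study measures how far untreated littermates differ. W5 is a single animal, and each difference from it carries its own state. Each of W1 to W4 was hybridised with W5 on 4 two-colour arrays, 2 with the mouse in channel 1 and 2 with W5 there, 16 arrays in all. Array W4.3, for example, is array 3 of W4.

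Insulin-like growth factors (IGFs) I and II are small peptides that drive growth and metabolism through the IGF-I receptor. The IGF binding proteins hold them in blood and tissue with high affinity, extend their life and control their access to the receptor, and proteases release the growth factor by cutting the binding protein. Kidney makes IGF-I and most of the binding proteins, and IGFs raise renal blood flow and filtration. Igfbp3 is the main carrier in the circulation, in a complex with IGF and the acid-labile subunit encoded by Igfals. Igfbp1 is held down by insulin and rises in fasting in liver. Igfbp2 is another abundant carrier in plasma, Igfbp4 mainly inhibits IGF action, and Igfbp6 prefers IGF-II.

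Every value below is a log2 ratio of a mouse to W5, with W5 at 0 and the sign turned on arrays that held W5 in channel 1. The sources used here do not say which channel is the numerator. Values are therefore placed by side. Side A, written as positive, is the side of W5 on which Igfbp3 lay in all 4 mice, and side B, written as negative, is the opposite side. Which side means more transcript is unknown. Between 80.2% and 91.1% of the probes of an array had a value, and all 5 members had a value on all 16 arrays. Ratios hold no level, so the kidney label could not be checked against marker levels. In RNA of a whole kidney, fewer cells of a type and less RNA per cell cannot be told apart. The arrays of a mouse repeat the same RNA, so a test here concerns these extracts and not mice in general.

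Igfbp3 and Igfbp1 are next-door neighbours among the protein-coding genes of chromosome 11, on opposite strands. Their promoters are shown because the pair shares a neighbourhood but not a profile, and those of Fbln5 and Esm1 because these 2 genes had the profiles most like that of Igfbp3. Each line gives the 250 bases before an annotated transcript start, 5′ to 3′ on the gene's own strand, from RefSeq's annotation of GRCm38.p6. For Igfbp3 that start lies inside the annotated gene, whose span reaches farther upstream, so another start exists that is not shown. For Fbln5 the outermost of its starts was used. Igfbp3 lies on the minus strand at chr11:7213924-7214173, Igfbp1 on the plus strand at chr11:7197537-7197786, Fbln5 on the minus strand at chr12:101819120-101819369 and Esm1 on the plus strand at chr13:113209409-113209658.
Igfbp3: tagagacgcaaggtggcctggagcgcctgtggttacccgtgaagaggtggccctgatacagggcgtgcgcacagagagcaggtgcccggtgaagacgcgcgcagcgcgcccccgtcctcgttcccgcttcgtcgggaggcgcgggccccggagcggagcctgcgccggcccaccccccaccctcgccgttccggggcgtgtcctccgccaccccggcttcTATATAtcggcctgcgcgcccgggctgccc
Igfbp1: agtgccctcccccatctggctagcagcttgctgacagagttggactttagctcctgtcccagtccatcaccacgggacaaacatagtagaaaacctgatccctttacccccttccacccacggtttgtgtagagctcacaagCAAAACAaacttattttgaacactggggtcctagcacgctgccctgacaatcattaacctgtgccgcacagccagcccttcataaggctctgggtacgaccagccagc
Fbln5: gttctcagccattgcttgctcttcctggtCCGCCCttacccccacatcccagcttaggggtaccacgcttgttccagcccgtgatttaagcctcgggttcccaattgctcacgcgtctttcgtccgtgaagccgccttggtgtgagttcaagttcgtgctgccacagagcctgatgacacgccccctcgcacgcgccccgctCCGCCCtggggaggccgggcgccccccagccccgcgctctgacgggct
Esm1: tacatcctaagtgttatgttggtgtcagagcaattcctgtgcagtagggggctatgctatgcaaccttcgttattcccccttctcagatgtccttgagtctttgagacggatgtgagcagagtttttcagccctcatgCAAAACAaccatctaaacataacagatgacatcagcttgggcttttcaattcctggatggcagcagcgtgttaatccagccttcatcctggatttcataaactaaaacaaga
Capitals mark matches to the motifs searched, on either strand: the TATA box TATAAA, the related TATATA, the GC box GGGCGG, the letters CAAAACA known from the insulin response element of the human and rat IGFBP1 promoter, and the STAT site TTCNNNGAA. TATATA was added after the letters of the Igfbp3 promoter were seen. The motifs do not overlap in these 4 windows.

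The Igfbp3 window was 73.2% G and C, and held TATATA with its first base 30 bases before the start. The Igfbp1 window was 53.2% G and C and held CAAAACA at 108 bases before the start. Fbln5 (65.2% G and C) held the GC box on the other strand, printed as CCGCCC, at 221 and at 48 bases before the start. Esm1 (44% G and C) held CAAAACA at 112 bases before the start. Over 32851 mouse promoters of the same length the median was 52.4% G and C. TATATA was found in 5.25% of them, CAAAACA in 5.56%, GGGCGG in 32.7%, TATAAA in 12.4% and TTCNNNGAA in 7.02%. Neither TATAAA nor TTCNNNGAA was in any of the 4 windows. Igfbp3 shared none of the motifs searched with Fbln5 or Esm1, and a match or its absence says nothing here of any factor.

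Igfbp3 lay on side A on 16 of 16 arrays. Its 4 arrays of W1 read 0.56, 0.49, 0.33 and 0.51, and those of W2 read 1.09, 1.1, 0.87 and 1.23. In W3 it read 0.14, 0.41, 0.10 and 0.40, and in W4 1.19, 1.18, 1.13 and 1.41. The arrays of W2 and W4 overlapped each other, and so did those of W1 and W3, but no array of W1 or W3 reached the lowest array of W2 or W4. As deposited, before any sign was turned, the ratio was above 0 on 8 of 8 arrays with the mouse in channel 1 and on 0 of 8 with W5 in channel 1. Igfbp3 thus lay on the same side of W5 in both channel orientations. Its size in W3 differed between them: as deposited, the arrays of W3 averaged 0.12 with the mouse in channel 1 and -0.41 with W5 there.

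The fit placed Igfbp3 at 0.47, 1.07, 0.26 and 1.23 in W1 to W4, each ± 0.07 (SE, n = 4 arrays). These are 1.39-fold, 2.1-fold, 1.2-fold and 2.34-fold from W5. Outward from W5 the order was W3, W1, W2 and W4. The neighbours W2 and W4 were 0.16 ± 0.10 apart and W1 and W3 were 0.21 ± 0.10 apart (SE), and within either pair the arrays overlapped. W3 lay 0.26 ± 0.07 from W5. Steps across the middle of the order were wider, with W1 and W2 0.60 apart, W1 and W4 0.76, W2 and W3 0.81, and W3 and W4 0.97, each ± 0.10.

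The whole range of Igfbp3, W5 included, was 1.23, or 2.34-fold. It stood at percentile 99.9 of the 15715 probes with enough values to be tested, whose median range was 0.24. Among W1 to W4 alone, with W5 left aside, it was 0.97. The mean over the 4 mice was 0.76 ± 0.46 (SD, n = 4 mice). Igfbp3 was also one of the more steadily measured probes: its residual SD was 0.103, against a median of 0.195 over all probes, at percentile 3.72 of all probes. Its array-to-array SD was 0.10, 0.15, 0.17 and 0.13 in W1 to W4. The widest departure from W5 was seen in W4, whose arrays had residual SDs over all probes of 0.208 to 0.231, against 0.153 to 0.174 in W1, 0.168 to 0.201 in W2 and 0.157 to 0.211 in W3. With each array scaled to a common spread, Igfbp3 still ranged over 1.12.

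**Figure D1:**
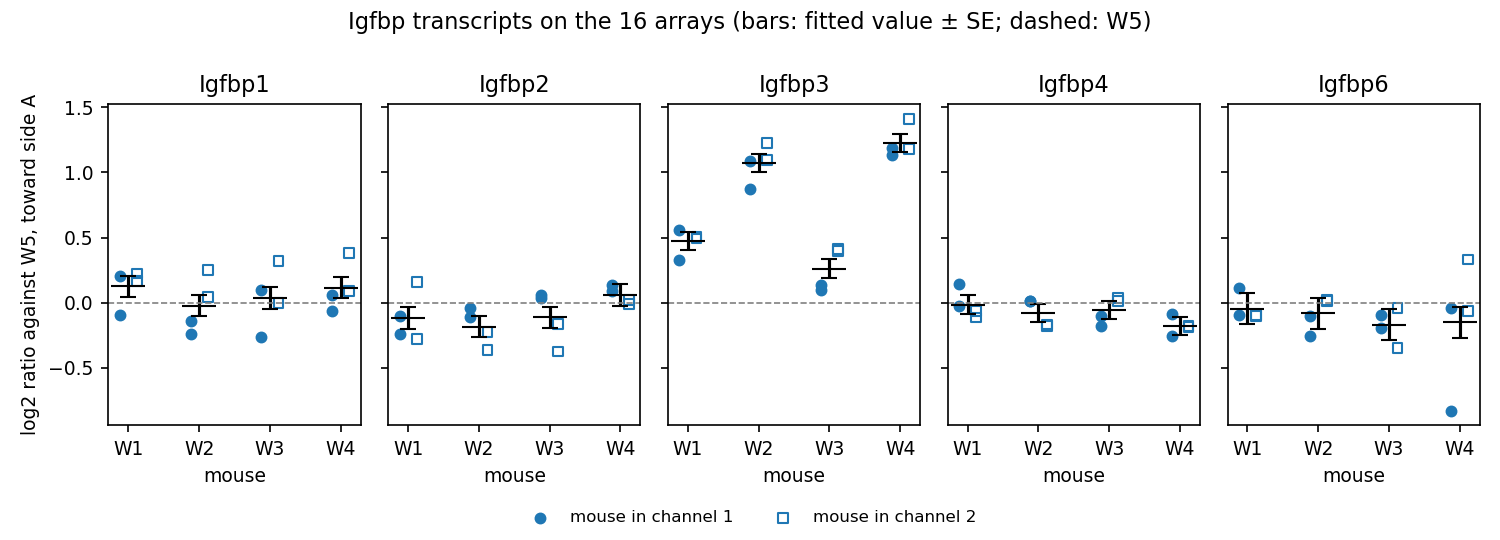
Log2 ratio against W5, toward side A, of the 5 Igfbp transcripts on each of the 16 arrays, by mouse on the horizontal axis. Filled circles are arrays with the mouse in channel 1, open squares arrays with the mouse in channel 2, bars the fitted value ± SE, and the dashed line is W5. All Igfbp3 points lie above the line, highest in W4 and W2, while the points of the other members lie around it and 1 Igfbp6 array of W4 lies at -0.83.

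The other 4 members lay at fitted distances of up to 0.18 from W5. Limma's moderated F test over the 5 kidneys called 0 of these 4, where it called 629 of 15715 probes (4.00%). At an unadjusted p under 0.05 it also took 0 of 4, against 2806 of the 15715 probes. The test among W1 to W4, in which W5 cancels, called 110 probes (0.700%) and 0 of these 4. With the mouse as the replicate, limma's test of W5 against its littermates called 45 probes (0.286%) and 0 of these 4. At an unadjusted p under 0.05, those tests took 1751 and 2111 of the 15715 probes and again 0 of 4. With only 4 members, 0 of 4 is a common outcome at each of these shares and does not set them apart from other probes.

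Igfbp1, the member that insulin represses in liver, had the narrowest range with W5 included. It read -0.10, 0.17, 0.20 and 0.22 on the arrays of W1, and -0.14, 0.04, -0.24 and 0.25 on those of W2. W3 gave -0.26, 0.32, 0.09 and -0.0034, and W4 gave -0.07, 0.09, 0.06 and 0.38. Every mouse had arrays on both sides of W5. The fitted values were 0.12, -0.02, 0.04 and 0.12 in W1 to W4, each ± 0.08 (SE), a range of 0.15 (limma, adjusted p = 0.654). The widest 95% limit lay 0.30 from W5, in W1, so these arrays leave room for a difference of up to 1.23-fold. Igfbp1 carried the largest dye term of the members, 0.12 ± 0.04, with an unadjusted p of 0.0109 and an adjusted p of 0.0680 in limma, where 12.5% of all probes were called for dye. That of Igfbp3 was 0.08 ± 0.04 (unadjusted p = 0.0312, adjusted p = 0.127).

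Igfbp2, the other abundant plasma carrier, had the widest range of the 4 over all arrays. It read -0.24, 0.16, -0.11 and -0.28 in W1, and -0.11, -0.36, -0.04 and -0.23 in W2. In W3 it read 0.03, -0.16, 0.06 and -0.38, and in W4 0.09, -0.0074, 0.14 and 0.02. The arrays of W2 all lay on side B, and those of every other mouse lay on both sides. Fitted values were -0.12, -0.18, -0.11 and 0.06 in W1 to W4, each ± 0.08. The range of 0.24 equals the median over all probes, and it was not called (adjusted p = 0.366 over the 5 kidneys and 0.658 among W1 to W4). The widest 95% limit was 0.36, in W2, or 1.28-fold. In that mouse the limits, not adjusted over probes, ran from -0.36 to -0.01 and left out W5. Limma's test of the pair W2 and W5 did not call Igfbp2 (adjusted p = 0.307).

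Igfbp4, which restrains IGF action until it is cleaved, had all its fitted values a little on side B. It read -0.03, -0.07, 0.15 and -0.11 in W1, 0.0094, -0.18, 0.01 and -0.17 in W2, and -0.10, 0.01, -0.18 and 0.04 in W3. The arrays of W4 were all on side B, at -0.08, -0.19, -0.26 and -0.18. The fitted distances were 0.01, 0.08, 0.06 and 0.18 in W1 to W4, each ± 0.07 and each on side B. Its range of 0.18 was not called (adjusted p = 0.409), nor was its distance between W4 and W5 in limma's test of that pair (adjusted p = 0.230). The widest 95% limit was 0.32, in W4, or 1.25-fold. In that mouse the limits, not adjusted over probes, ran from -0.32 to -0.03 and left out W5. Igfbp4 lies on chromosome 11 like Igfbp1 and Igfbp3, but 1045 protein-coding genes away.

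Igfbp6, the binding protein that prefers IGF-II, was the noisiest member. It read -0.09, -0.09, 0.11 and -0.10 in W1, -0.10, 0.02, -0.26 and 0.01 in W2, and -0.20, -0.35, -0.09 and -0.04 in W3. In W4 it read -0.04, 0.33, -0.83 and -0.07, so that the arrays of a single mouse spanned more than the fitted range of the gene. Its residual SD of 0.263 was at percentile 78.4 of all probes. Fitted distances were 0.04, 0.08, 0.17 and 0.15 in W1 to W4, each ± 0.12 and each on side B, with a range of 0.17 (adjusted p = 0.669) and 0.13 among W1 to W4, less than that of Igfbp1 (0.15). Against its littermates W5 stood 0.11 ± 0.06 away (SD, n = 4 mice), with an unadjusted p of 0.0506 and an adjusted p of 0.374. Without array W4.2 its range was 0.30, wider than that of Igfbp2 over all arrays, and it was still not called (adjusted p = 0.335). A difference of up to 1.34-fold remains inside the 95% limits.

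Of the members other than Igfbp3, Igfbp4 and Igfbp6 had all 4 mice on one side of W5, and that was so for 21.3% of all probes. No other member had a profile close to that of Igfbp3. Over the 16 arrays, Pearson's r with Igfbp3 was 0.0018 for Igfbp1, 0.17 for Igfbp2, -0.42 for Igfbp4 and -0.03 for Igfbp6. The arrays of a mouse share an extract and all arrays share W5, so these are descriptions over 4 mice rather than 16 independent samples. For scale, 6157 named genes had a median r of 0.04 with Igfbp3, with a 5th percentile of -0.46 and a 95th of 0.51.

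The wider IGF system was taken as lists of genes by role. No IGF ligand or receptor was called by limma in the 5-kidney test (0 of 5 tested, median range 0.23), where 4.2% of 8005 named genes were and the median range was 0.23. Igf2, the fetal growth factor, ranged over 0.23 on 13 arrays with a value (adjusted p = 0.697). Igf1r, the receptor that signals for both IGFs, ranged over 0.23 (adjusted p = 0.340), and its other probe over 0.24 (adjusted p = 0.488). Igf2r, which clears IGF-II, had a range of 0.11, the narrowest of these genes (adjusted p = 0.703). The insulin receptor gene Insr ranged over 0.28 (adjusted p = 0.414) and had an r of 0.65 with Igfbp3, while its fitted values were -0.06, 0.08, -0.20 and -0.02 in W1 to W4. Igfals, the third partner of the circulating complex, lay at 0.0041, -0.34, -0.11 and -0.14 in W1 to W4 and was not called (adjusted p = 0.131). The Igf1 probe had values on 2 arrays and was not tested, and Ghr, the growth hormone receptor, had no single-gene probe.

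The background for the lists in this paragraph, over all named genes, was 4.2% called and a median range of 0.23. Proteases that cut IGF binding proteins, with their regulators, had 0 of 7 called at a median range of 0.25. The widest of them, named after their values were seen, were the urokinase gene Plau, with a range of 0.74 (adjusted p = 0.114), and the gelatinase gene Mmp2, with 0.61 (adjusted p = 0.282). Genes that carry the insulin and IGF signal inside the cell, from Akt1 to Mtor, had 0 of 19 called at a median range of 0.22. In the growth hormone and STAT5 list 1 of 6 was called. This was Cish, a feedback inhibitor that STAT5 induces, at -0.50, -0.07, 0.15 and 0.43 in W1 to W4, a range of 0.93 (adjusted p = 0.00519). Its order, with W1 and W4 at the ends, was not that of Igfbp3 (r = 0.41), and without mouse W1 its adjusted p was 0.0923.

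Other genes whose proteins carry an IGFBP-type domain but bind IGFs weakly or not at all had 3 of 7 called, at a median range of 0.35. Over all named genes 4.2% were called, at a median range of 0.23. Esm1, which encodes the endothelial proteoglycan endocan, lay at 0.14, 0.54, 0.04 and 0.74 in W1 to W4, each ± 0.08 (adjusted p = 1.45e-05). Ccn2, the matricellular connective tissue growth factor, lay at -0.05, 0.77, 0.14 and 0.68 in W1 to W4, each ± 0.09 (adjusted p = 1.22e-05). Both were called among W1 to W4 as well, with adjusted p-values of 0.00509 and 0.00184. Their values were highest in W2 and W4, as those of Igfbp3 were, at r of 0.94 and 0.85. Ccn1, the relative of Ccn2, was highest in W3 and had an r of -0.40. It lay at 0.17, 0.26, 0.40 and 0.17 in W1 to W4 (adjusted p = 0.00753), and without mouse W3 its adjusted p was 0.128.

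**Figure D2:**
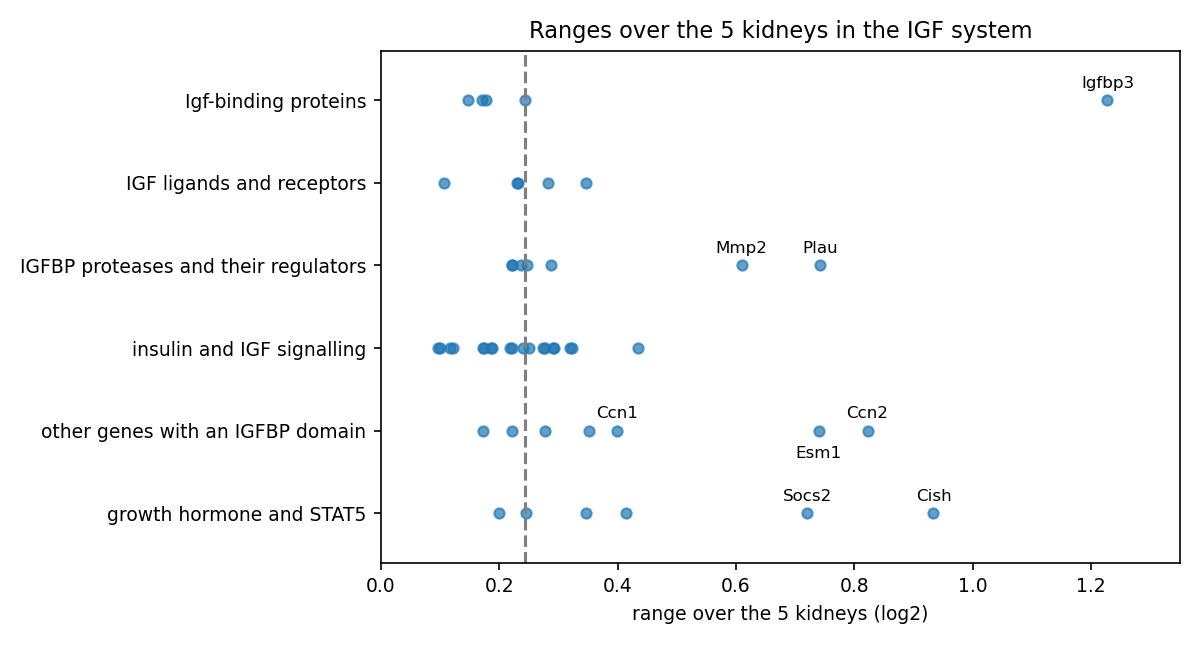
Range over the 5 kidneys (log2, horizontal axis) of each gene tested in 6 lists of the IGF system, 1 point per gene, with the median of all probes tested (0.24) as a dashed line. Igfbp3 at 1.23 stands far right of the other binding proteins, and Cish, Ccn2, Plau, Esm1, Socs2 and Mmp2 are the other genes beyond 0.6.

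Genes under FoxO factors or of the fasting response, the setting in which liver Igfbp1 rises, had 2 of 4 called, against 4.2% of all named genes. Ppargc1a, a coactivator of gluconeogenesis and mitochondrial genes, lay at 0.02, -0.12, -0.57 and -0.25 in W1 to W4 (adjusted p = 0.00312). Without mouse W3 its adjusted p was 0.328. Txnip, an inhibitor of thioredoxin and glucose uptake, was called at an adjusted p of 0.0397 but missed the threshold in 14 of 28 alternative settings, 9 of them with 1 array of W1, W2 or W3 left out, with adjusted p-values up to 0.314 (without mouse W3). Txnip had an r of 0.70 with Igfbp3 and Ppargc1a one of 0.28, and Igfbp1 itself was not called. Among hypoxia response genes, another pathway known to act on IGF binding proteins, 1 of 10 was called, against the same 4.2%. P4ha1, a collagen prolyl hydroxylase, lay at -0.18, -0.28, 0.0076 and -0.28 in W1 to W4 (adjusted p = 0.0164), and lost the call in 4 of 28 alternatives, namely without mouse W1, W2 or W4 and, at the highest adjusted p of 0.182, without the dye term.

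The named genes whose arrays most resembled those of Igfbp3 were Fbln5 (r = 0.96), Esm1 (0.94), Scd1 (0.90), Gimap4 (0.90), Rsad2 (0.90), Abca13 (0.90), Plpp1 (0.90), Flt1 (0.87), Ccn2 (0.85) and H2-Eb1 (0.85), over 16 arrays and 6157 genes compared. Genes picked for likeness to a gene that varies must vary too, so their own tests are not read as support. Fbln5, an elastic fibre protein of vessel walls, was the only one of the 10 to match Igfbp3 in both profile and size: it lay at 0.70, 1.22, 0.48 and 1.21 in W1 to W4, each ± 0.07. Likeness here did not need the same place relative to W5. Scd1, a fatty acid desaturase, lay at -0.75, -0.13, -0.62 and 0.12 in W1 to W4, so that W2 and W4 lay toward side A of W1 and W3, as in Igfbp3, but mostly on the other side of W5.

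In the other 8, W2 and W4 lay between 0.30 and 0.77 on side A, while W1 and W3 lay between -0.19 and 0.14. Rsad2, an interferon-induced antiviral enzyme, lay at -0.06, 0.40, -0.09 and 0.47 in W1 to W4, and the lymphoid GTPase gene Gimap4 at 0.04, 0.33, -0.19 and 0.30. Plpp1, a lipid phosphate phosphatase, lay at 0.05, 0.38, 0.0023 and 0.46, and the MHC class II gene H2-Eb1 at -0.05, 0.38, 0.06 and 0.44. The probe of Flt1, a VEGF receptor, lay at 0.12, 0.46, -0.12 and 0.45, but the other Flt1 probe had an r of 0.50 and was not called (adjusted p = 0.406). The least like were Cpn1, a carboxypeptidase N subunit (r = -0.93), the organic anion transporter gene Slc22a7 (-0.93) and Fitm1, which acts in lipid droplet formation (-0.90). Slc22a7 lay at -0.05, -0.53, 0.02 and -0.50 in W1 to W4, and Cpn1 lay at 0.64, 0.25, 0.80 and 0.10.

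**Figure D3:**
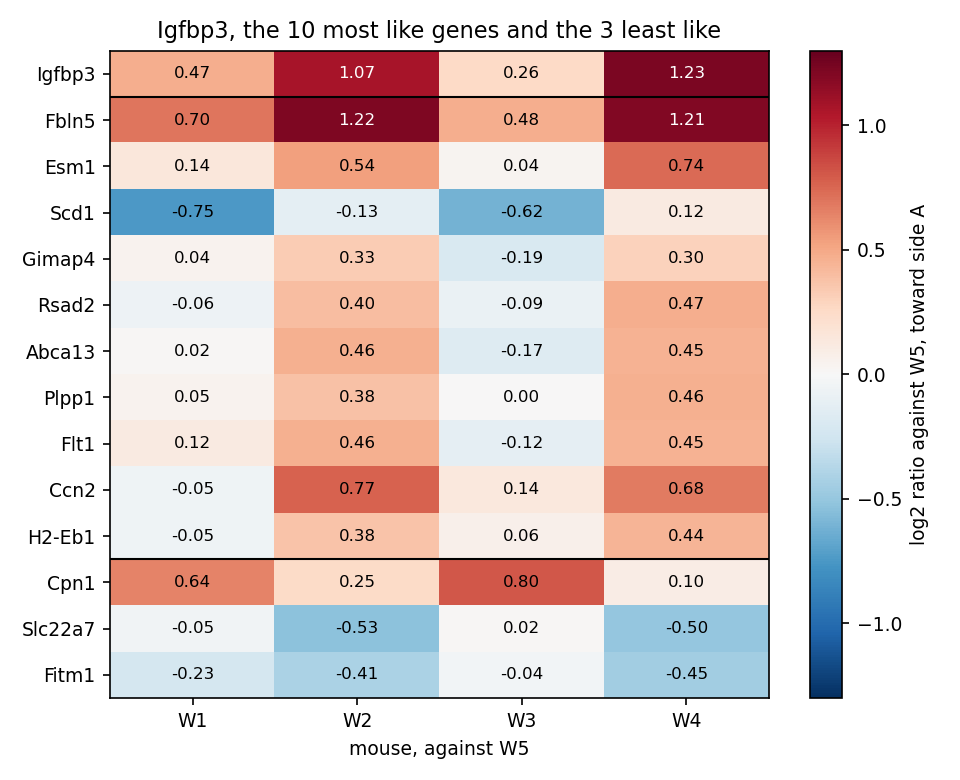
Fitted log2 ratio against W5, toward side A, in W1 to W4 (columns) for Igfbp3, the 10 named genes with the highest Pearson r with it over the 16 arrays and the 3 with the lowest (rows), written in each cell and coloured from blue (side B) to red (side A). Fbln5 is the one gene with Igfbp3's sizes, and in the 10 most like genes W2 and W4 lie farther toward side A than W1 and W3.

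The tested neighbours of Igfbp3 on chromosome 11 did not vary as a block. Of the 20 nearest protein-coding genes, 10 on each side, 10 were tested and 1 was called, with ranges of 0.07 to 0.63 and a median of 0.26. Over all named genes 4.2% were called and the median range was 0.23. The rest of the 20, among them Tns3 directly next to Igfbp3, were not tested. Igfbp1, immediately next to it, had an r of 0.0018 with Igfbp3. The called neighbour was Abca13, an ABC transporter gene 8 genes away on the other side, at 0.02, 0.46, -0.17 and 0.45 in W1 to W4 (adjusted p = 0.000698). It is also among the 10 genes most like Igfbp3.

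Markers of cell types that a kidney holds were set beside Igfbp3, since Fbln5, Esm1 and Flt1 are vessel genes. Over all named genes 4.2% were called and the median range was 0.23, which is the background for each list that follows. Among endothelial markers 4 of 11 were called (median range 0.44): Esm1, Emcn at 0.03, 0.51, 0.04 and 0.59 in W1 to W4 (adjusted p = 0.00102), Egfl7 at 0.06, 0.45, -0.09 and 0.26 (adjusted p = 0.00254), and Ehd3 at 0.08, 0.36, -0.09 and 0.29 (adjusted p = 0.0276). All 10 endothelial markers with a value on every array had an r with Igfbp3 above 0, from 0.09 to 0.94 with a median of 0.45, where 54.9% of all named genes were above 0. Esm1 (0.94) and Flt1 (0.50 with the probe used here) are counted in this list, although their likeness to Igfbp3 had prompted it. The shares of the list are therefore description and not support. Other endothelial genes were not called, among them the von Willebrand factor gene Vwf (range 0.44, adjusted p = 0.463) and Tie1 (0.34, adjusted p = 0.620). Without mouse W2 the adjusted p was 0.0503 for Emcn and 0.200 for Egfl7. Ehd3 missed the threshold in 7 of 28 alternatives, among them without array W2.2 or W2.3 and without mouse W1, W2 or W4, with adjusted p-values up to 0.217 (without mouse W2), and its other probe was not called (adjusted p = 0.624).

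Of vessel wall and stroma markers 4 of 13 were called, all on side A in the 4 mice, with a median r of 0.22 and 9 of 12 above 0. Fbln5 was among them, although its likeness to Igfbp3 had prompted the list. The others called were Mgp, a calcification inhibitor (range 0.51, adjusted p = 0.000575), the proteoglycan gene Dcn (0.47, adjusted p = 0.0246) and the collagen gene Col3a1 (0.36, adjusted p = 0.0342). Dcn missed the threshold in 5 of 28 alternatives, among them without array W2.2 or W4.3 and without mouse W2 or W4, with adjusted p-values up to 0.180 (without mouse W4), and Col3a1 in 11, among them without arrays of W1 or W2 and without mouse W1, W2 or W3, up to 0.237 (without mouse W1). Both other probes of the collagen gene Col1a2 and the other probe of the fibronectin gene Fn1 (adjusted p = 0.00543) were called as well, while the probes used for these genes were not (adjusted p = 0.210 and 0.357). The smooth muscle genes Acta2 and Myh11 were not called and had r of -0.11 and -0.39, and the pericyte gene Pdgfrb had 0.25. Vessel markers thus ran from an r of 0.96 for Fbln5, whose likeness had prompted the lists, to -0.39 for Myh11. Their part in the Igfbp3 values was not tested.

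Median r with Igfbp3 was below the endothelial one in each of the lists that follow. The endothelial list was prompted by genes picked for likeness to Igfbp3, so this order of medians is description and not support. Single members of the lists that follow ran close to Igfbp3 or opposite to it. Of podocyte markers 2 of 4 were called, at a median r of 0.14. Podxl, the sialomucin of podocyte foot processes that endothelium also makes, lay at 0.40, 0.68, 0.04 and 0.47 in W1 to W4 (adjusted p = 3.86e-05), was called in all 28 alternatives and had an r of 0.74. Npnt, a basement membrane protein, was on side B in every mouse, with a range of 0.29 and an r of -0.31 (adjusted p = 0.0153). It missed the threshold without the dye term and without mouse W1 or W4, with adjusted p-values up to 0.148. Of collecting duct markers 3 of 6 were called, at a median r of -0.09: the water channel gene Aqp2 (range 0.59, adjusted p = 0.00879), the pendrin gene Slc26a4 (0.38, adjusted p = 0.0183) and the intercalated cell regulator Foxi1 (0.29, adjusted p = 0.0183). Their r were -0.12, -0.06 and -0.24. Aqp2 missed the threshold without the dye term and without mouse W1 or W4 (adjusted p up to 0.160), and Foxi1 without mouse W2, W3 or W4 (up to 0.0669). Slc26a4 missed it in 7 of 28 alternatives, among them without array W2.1, W2.2 or W2.3, without mouse W1, W2 or W3 and without the dye term (up to 0.210).

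Proximal tubule markers had 6 of 12 called, at a median r of 0.24. The widest called ones were Slc22a7, the phosphate and urate transporter gene Slc17a3 (range 0.52, adjusted p = 0.00309), the water channel gene Aqp1 (0.47, adjusted p = 0.0153) and the glucose transporter gene Slc5a1 (0.43, adjusted p = 0.00929). Their r spread from -0.93 for Slc22a7 over -0.29 for Slc5a1 and -0.21 for Slc17a3 to 0.21 for Aqp1, and Slc7a7 had the highest of the list at 0.73. Slc17a3 missed the threshold without mouse W1 (adjusted p = 0.145), Aqp1 without mouse W1 or the dye term (up to 0.149) and Slc5a1 without mouse W2 or the dye term (up to 0.145). Ass1, also among the 6, was called at an adjusted p of 0.0492 but missed the threshold in 20 of 28 alternatives (up to 0.216). Slc22a7 is among the 3 genes least like Igfbp3, so its call is not read as support. In the loop of Henle and distal tubule 0 of 3 were called by limma, at a median r of -0.41. Of leukocyte markers 2 of 11 were called, at a median r of 0.12, namely H2-Eb1 and H2-Aa, the class II genes, with r of 0.85 and 0.83. Without mouse W4 the adjusted p of H2-Eb1 was 0.0515. Lyz2 had the lowest r of that list, -0.43, and was not called (adjusted p = 0.127), while its other probe was (adjusted p = 0.0117).

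Adipocyte markers had 4 of 5 called, at a median r of -0.16. All 4 mice had Fabp4, Cidec and Car3 on side B, with ranges of 0.67, 0.85 and 0.53, and r of 0.36, -0.07 and -0.40, and the other Car3 probe was called too. Lpl, the lipoprotein lipase gene, ranged over 0.59 with an r of -0.54 (adjusted p = 0.0273). Its other probes were called too, but the one used missed the threshold without array W2.2, W2.3 or W2.4, without mouse W2 and without the dye term, with adjusted p-values up to 0.634.

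**Figure D4:**
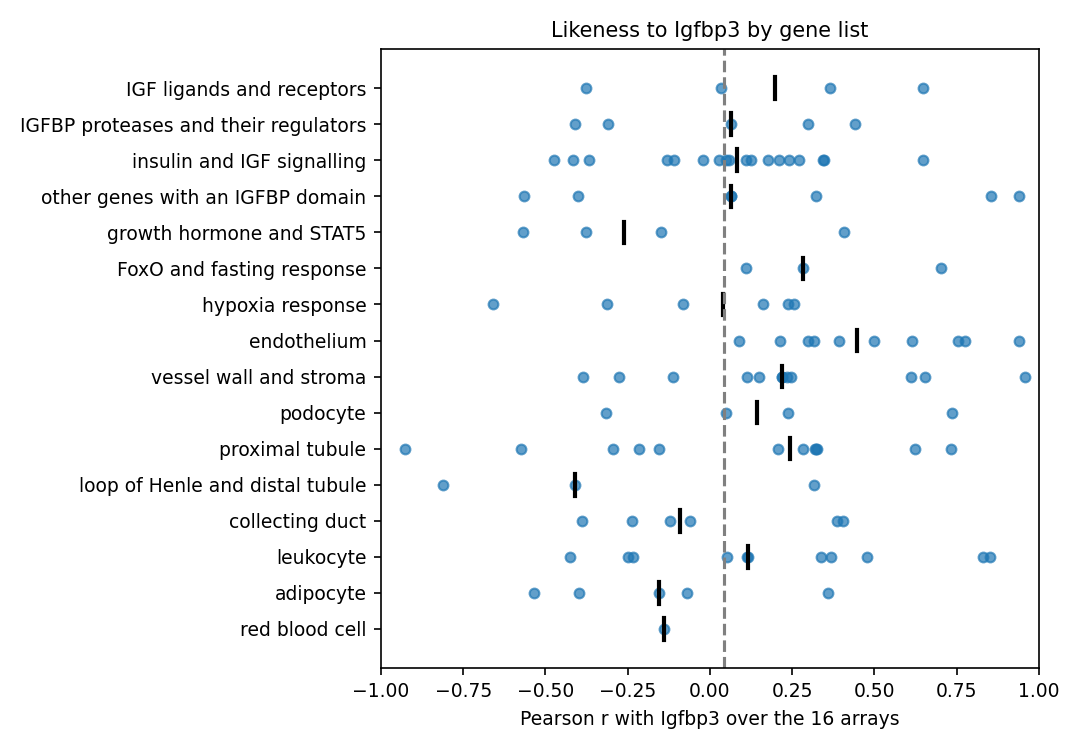
Pearson r with Igfbp3 over the 16 arrays (horizontal axis) for each gene of 16 lists that had a value on every array, 1 point per gene, with each list's median as a black bar and the median of all named genes (0.04) as a dashed line. Endothelial genes lie above 0 throughout (median 0.45), and the proximal tubule list spans almost the whole axis. The endothelial points include Esm1 and Flt1, whose likeness to Igfbp3 prompted that list.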

How the data were processed

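Kidney RNA was reverse transcribed, labelled with Cy3 or Cy5 and hybridised in pairs, and slides were read with a GenePix scanner, per the labels. Per the same labels, the authors subtracted background from mean intensities and set the median ratio of an array to 1; the deposited log2 values are these ratios between channels. The base was settled from the values: 1.55% to 4.90% of values per array fell within 2e-06 of log2 of whole-number ratios (numbers to 12, the commonest value of an array taken as ratio 1), against at most 0.0342% for natural logs and 0.123% for log10. The dye of each channel, the numerator and the reason for empty cells were not stated.

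Signs were turned on arrays with W5 in channel 1. Arrays of a mouse in opposite orientation, each probe centred over mice, correlated at -0.156, -0.0759, -0.0658 and -0.107 across probes in W1 to W4 before turning. Probes with values on at least 3 of 4 arrays of every mouse (15715) were fitted in limma 3.58.1 (R 4.3.3) with lmFit and eBayes, as 4 mouse coefficients and a dye term. Two-sided moderated tests had Benjamini-Hochberg adjustment over all probes fitted, and a probe was called under 0.05. W5 was set against the 4 mouse means, which leaves out its own spread. The fit was tested on simulated data. Same-numbered arrays of different mice correlated at -0.253 to 0.135, and 0 of 16 arrays correlated best with its own number, so numbers do not pair arrays. A random block for the mouse, one for the array number, other filters and scalings, array weights, and leaving out arrays or mice were tried as alternatives.

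Of 20205 probes 11723 had 1 gene symbol in the platform annotation, 806 several and 7676 are unnamed here; 11590 matched a GRCm38.p6 gene table, used for names, strand and gene order. For a gene with several probes, that measured on most arrays was used. The number of arrays limits the precision. Likeness to Igfbp3 used probes with values on all 16 arrays, with each fitted dye term removed. Named genes are all members, called genes of the IGF lists with the ligands and receptors, up to 4 called genes per other list by range, and the 10 most and 3 least like Igfbp3; any other gene named was chosen after its values were seen. The members, lists and tests were chosen with earlier results of these data known.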

Additional observations from a re-analysis of the deposited data

Results flagged for a closer look

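Of the 20 sets of 4 arrays, 5 members in each of 4 mice, 1 had an array far from the other 3 by Dixon's test. Igfbp6 on array W1.3 read 0.114 toward side A, while the other arrays of W1 read -0.0946, -0.0943 and -0.105. Chance alone marks about 1 set in 20. The Igfbp6 reading of -0.83 on array W4.3 did not pass this test, since the other arrays of W4 were spread as well.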

How the results depend on the processing

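Over 28 alternatives, the range of Igfbp3 lay between 1.07 and 1.27 around 1.23. It was 1.12 with arrays scaled to a common median absolute deviation, where its size in W4 was 1.12 too, and 1.07 without mouse W4, the outermost kidney by definition. With 1 array left out it was 1.19 to 1.27, and with the replicate block it was 1.23. The count of other members called was 0 in each of the 3 tests under every alternative run, arrays left out (0 to 0) and the replicate block included. Their lowest and highest adjusted p in the 5-kidney test were 0.529 and 0.856 for Igfbp1, 0.111 and 0.630 for Igfbp2, 0.361 and 0.799 for Igfbp4, and 0.335 and 0.817 for Igfbp6. Counts over all probes moved more. The 5-kidney count of 629 was 403 without the dye term, 591 with the replicate block, 833 with array weights and 335 to 510 without a mouse. The count of 110 among W1 to W4 was 62, 97, 243 and 49 to 70 in those settings, and 70 without W3.2. The count of 45 for W5 was 126 on probes with all values, 69 with scaled arrays, 16 to 61 without a mouse, 69 without W2.4, 70 without W4.4, 3 with a spread for W5 added, 470 with the mouse as a random block and 392 with the replicate block added to it. Depth has no meaning for ratios with no level, and 4 mice against 1 limit what these data can show of littermates at large.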
